A study of Mus musculus with 13 samples.

Results

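The 10 BCL2 family genes Bcl2, Bcl2l1, Mcl1, Bax, Bak1, Bid, Bad, Bcl2l11, Bbc3 and Pmaip1 were followed through 13 RNA-seq libraries of mouse haematopoietic stem cells (HSCs). They were chosen by name, as members of the family that sets the threshold for mitochondrial cell death, and make up 10 of the 24015 gene symbols in the count table. All animals were C57BL/6, and each recipient had been given 1 Vwf-expressing HSC by transplantation. Per library, 100 donor-derived cells were sorted with the labelled phenotype LSKFlt3-CD150+CD48-CD45.2+Gata1-, a sort shared by all groups. The groups differ in the blood that the transplanted cell had made over 16 weeks: multilineage (MUL-HSC, 4 libraries), PEM-restricted (PEM-HSC, 6 libraries) or P-restricted (PLT-HSC, 3 libraries). The labels give neither the animals' age nor how many recipients stand behind a group, so the spread between libraries may be technical in part. All donor-derived cells of a recipient descend from 1 transplanted cell, and no untransplanted HSC library was analysed here.

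BCL2 family proteins meet at the outer membrane of mitochondria. Bax and Bak1 encode the proteins that open pores in that membrane, which lets cytochrome c out and starts the caspase cascade. Mcl1, Bcl2 and Bcl2l1 (BCL-X) encode survival proteins that hold the pore formers and their activators in check, and Mcl1 is known to be required for the survival of mouse HSCs. The BH3-only genes Bcl2l11 (BIM), Bid, Bad, Bbc3 (PUMA) and Pmaip1 (NOXA) encode the triggers that relieve that check after cytokine loss, DNA damage or death receptor signals. Much of this control acts on the proteins, which RNA counts do not show. A gene's count also adds up its isoforms, among them the long, protective and short, killing forms of Bcl2l1.

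Start-site sequences are shown for the most abundant survival gene, Mcl1, and for the pair of BH3-only genes with the most uneven levels between libraries, Bcl2l11 and Bbc3. Each is the run of 250 bases before a RefSeq transcription start in the build GRCm38.p6, which is later than the mm9 of the counts, and 9 of the 10 members had such an entry. Capitals mark matches on either strand to GTAAACA, a core recognised by FOXO factors, or to CCGGAAG, a core recognised by ETS factors. The Mcl1 stretch (chr3:95658471-95658720, plus strand) lies before all annotated transcripts of the gene and holds an ETS core 63 bases before the start.
Mcl1: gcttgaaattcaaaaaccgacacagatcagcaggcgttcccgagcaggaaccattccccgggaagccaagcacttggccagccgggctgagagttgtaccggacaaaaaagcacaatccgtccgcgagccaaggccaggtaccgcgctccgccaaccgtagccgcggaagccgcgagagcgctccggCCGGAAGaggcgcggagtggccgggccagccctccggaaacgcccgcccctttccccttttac
The Bcl2l11 stretch (chr2:128125788-128126037, plus strand) also lies before all transcripts, with a FOXO core 227 bases and an ETS core 105 bases before the start.
Bcl2l11: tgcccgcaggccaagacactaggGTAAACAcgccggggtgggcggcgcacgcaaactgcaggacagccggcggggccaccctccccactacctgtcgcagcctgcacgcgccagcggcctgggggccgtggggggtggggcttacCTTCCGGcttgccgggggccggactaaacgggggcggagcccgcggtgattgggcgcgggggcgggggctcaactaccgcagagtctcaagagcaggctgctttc
The Bbc3 stretch (chr7:16310011-16310260, plus strand) precedes an inner start and lies in an intron of a longer Bbc3 transcript, with a FOXO core 167 bases before that start.
Bbc3: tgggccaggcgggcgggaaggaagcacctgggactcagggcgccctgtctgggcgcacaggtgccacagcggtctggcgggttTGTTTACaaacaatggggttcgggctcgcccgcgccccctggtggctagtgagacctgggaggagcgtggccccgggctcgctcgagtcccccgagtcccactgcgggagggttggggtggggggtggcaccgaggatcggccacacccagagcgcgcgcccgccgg
For Bcl2l11 and Bbc3 only the stretch with a match is shown, and their other stretches held neither core. Over 15 stretches of the 9 members, the FOXO core was found in 2 members, Bcl2l11 and Bbc3. The ETS core was found in 2 members, Mcl1 and Bcl2l11, and no other member held either core. Across all 32851 stretches of this length, the FOXO core was found in 3.17% and the ETS core in 6.91%. These shares are per stretch, whereas members were counted per gene, and a member with several stretches has more chances of a match. A match describes the letters and does not show binding, and its relation to the levels was not tested. Among the FOXO genes, Foxo1 averaged 37.0 CPM (counts per mega-count, each library's gene counts scaled to the same total) over the 13 libraries, Foxo3 3.16 CPM and Foxo4 1.45 CPM. Foxo1 was uneven, with single libraries from 0.218 to 92.8 CPM.

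Library totals ran from 16371921 to 41367057 gene counts. A floor of 3 counts, which covers counting error only, corresponds to 0.0725 CPM in the deepest and 0.183 CPM in the shallowest library. The HSC markers Kit, Ly6a, Slamf1, Procr, Mecom, Hlf, Fgd5 and Ctnnal1 had counts in every group. Markers of other lineages were not all absent. The erythroid list summed to 16.6 to 144 CPM per library with the globin genes Hba-a1 and Hbb-b1 at 0, the neutrophil list to 188 to 725 CPM with Ltf at 0, and the B and plasma cell list to 465.5 to 886 CPM with Ms4a1 at 0. In the T and NK cell list 1 of 7 genes, Nkg7, had counts and Cd3e was at 0. Nkg7 ran from 122 to 201 CPM in MUL-HSC and from 17.8 to 142 CPM in PEM-HSC, and stood at 8.31, 2.64 and 136 CPM in PLT-HSC. Macrophage markers, 9 of 10 in the table, had summed levels between 36.6 and 61.9 CPM in MUL-HSC. Their sums lay between 91.6 and 389 CPM in PEM-HSC, and between 80.8 and 252 CPM in PLT-HSC. The part of these lists in the levels below was not tested, and a different share of such cells cannot be told apart from different RNA per cell.

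Transcripts of 9 members were found and 1, Pmaip1, was listed at 0 in all 13 libraries. In every library of each class, Mcl1 and Bid stood at 81.9 CPM or more and Bax and Bad at 43.3 to 110 CPM. Bcl2 and Bcl2l1 had group means of 31.6 to 52.6 CPM, with single libraries from 6.64 to 111 CPM and from 7.45 to 75.4 CPM. Bak1, Bcl2l11 and Bbc3 stood at 18.6 CPM or less in every library. Bcl2l11 had only 1 or 2 reads in 1 library of each class, and Bbc3 had 0 reads in PEM-HSC replicate 5. No member differed between classes by the test used (edgeR quasi-likelihood, adjusted over 12536 tested genes). Per kilobase of the longest transcript, which makes levels of different genes comparable, Bax stood at 61.0 ± 10.8 CPM per kb (SD over 13 libraries), Bid at 57.8 ± 12.8, Mcl1 at 50.9 ± 14.9 and Bad at 46.2 ± 10.9. These 4 neighbours did not differ beyond their spread: Bax was above Bid in 7, Bid above Mcl1 in 8 and Mcl1 above Bad in 7 of 13 libraries, and their order changed when the median transcript length was used. Bcl2l1 followed at 14.6 ± 7.94 CPM per kb and was below Bad in 13 of 13 libraries. Bcl2 stood at 5.25 ± 3.70, Bak1 at 2.21 ± 0.820, Bbc3 at 2.04 ± 1.72 and Bcl2l11 at 1.26 ± 1.19 CPM per kb. Bcl2l1 was above Bcl2 in 12 and Bcl2 above Bak1 in 12 libraries, while Bak1 was above Bbc3 in 7 and Bbc3 above Bcl2l11 in 9. With the median transcript length Bbc3 came to 7.65 CPM per kb, level with Bcl2 at 7.52 and above Bak1 at 3.21, so the place of Bbc3 in this order depends on the transcript chosen.

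**Figure D1:**
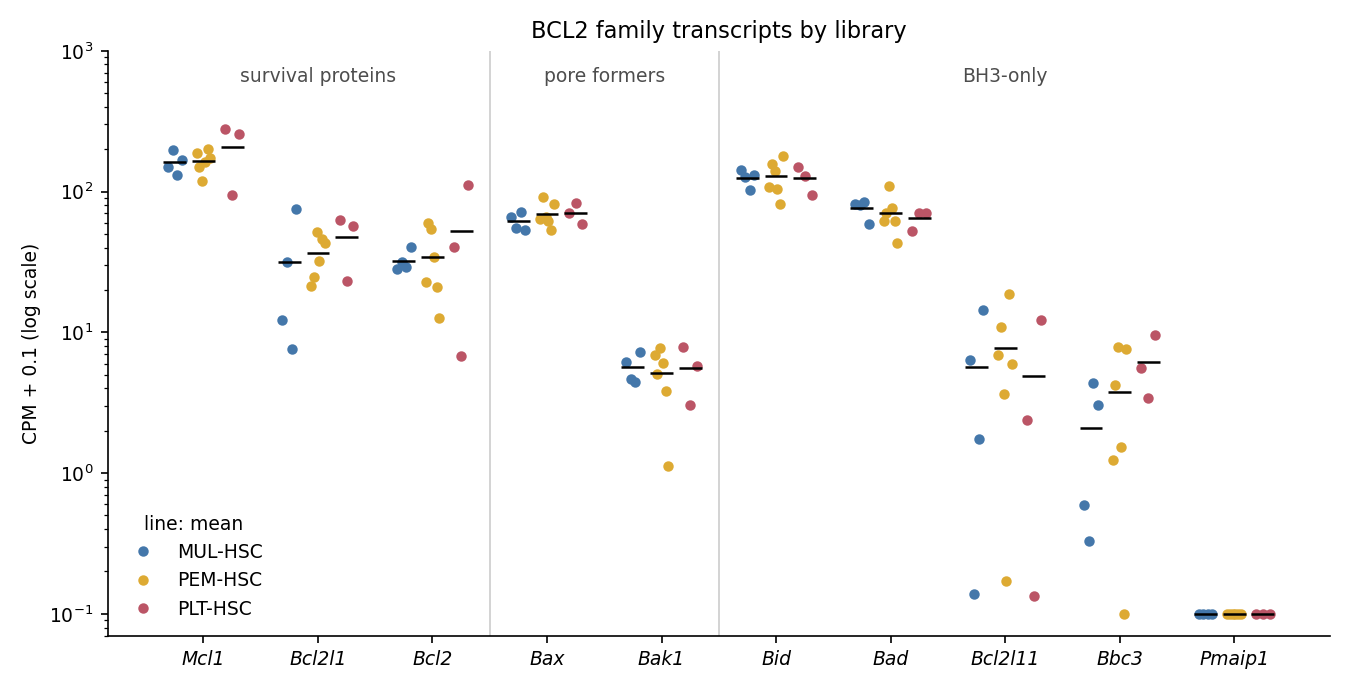
Level of each BCL2 family gene in each library (points, coloured by group) with the group mean (line), as CPM + 0.1 on a log axis. The 3 colours overlap for every gene, Pmaip1 sits at 0 throughout, and Bcl2l11 and Bbc3 spread far more than Bax, Bid or Bad.

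Among the survival genes, Mcl1 was the most abundant in all groups. It was measured at 149, 196, 132 and 168 CPM in MUL-HSC replicates 1 to 4. The 6 PEM-HSC libraries ran from 118 CPM through a median of 167 to 201 CPM. In PLT-HSC replicates 1 to 3 it stood at 276, 94.8 and 255 CPM. PLT-HSC therefore held both the pair of highest libraries and the lowest library of all 13, and its range enclosed both other groups. The log2 fold change of PLT-HSC against MUL-HSC was 0.33 (SE 0.29, 95% interval -0.28 to 0.94, edgeR adjusted p = 0.976). Without PLT-HSC replicate 2 it was 0.65, with an unadjusted p of 0.0188 and an edgeR adjusted p of 0.55. Without PLT-HSC replicate 1 it was 0.061. PLT-HSC replicate 1 also had the highest sum of 13 immediate early genes, 7744 CPM, against 1001 CPM in replicate 2 and 1950 in replicate 3. Mitosis genes summed to 65.2, 178 and 1177 CPM in the same order, and the part of either list in the Mcl1 level was not tested. Scaled by TMM, which corrects for a few genes taking a large share of counts, Mcl1 in PLT-HSC became 279, 104 and 231 CPM.

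Bcl2, the founding survival gene, was even in MUL-HSC, at 27.9, 31.7, 28.8 and 40.1 CPM. It ran from 12.5 through a median of 28.6 to 59.6 CPM in PEM-HSC. PLT-HSC libraries again held both ends, at 40.0, 6.64 and 111 CPM, a 16.7-fold range over all 13 libraries. The fold change of PLT-HSC against MUL-HSC, 0.62 on the log2 scale (95% interval -0.78 to 2.01), became -0.43 without PLT-HSC replicate 3 and 1.13 without replicate 2. Bcl2l1 was uneven in MUL-HSC instead, at 12.2, 31.3, 7.45 and 75.4 CPM, with replicate 4 the highest and replicate 3 the lowest of all libraries. In PEM-HSC it ran from 21.1 through 37.6 to 51.4 CPM, and in PLT-HSC it stood at 62.4, 23.1 and 56.9 CPM. Its log2 fold change against MUL-HSC was 0.58 in PLT-HSC and 0.21 in PEM-HSC, and without MUL-HSC replicate 4 these became 1.41 and 1.06, not called by edgeR (adjusted p = 0.571 and 0.725). Of the PLT-HSC libraries, replicate 2 was the lowest for all 3 survival genes, and Mcl1 and Bcl2 there had their lowest values of the series.

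Of the pore formers, Bax was far more abundant than Bak1 and one of the steadiest members. Bax stood at 65.8, 54.9, 71.3 and 53.01 CPM in MUL-HSC and at 70.4, 82.2 and 59.0 CPM in PLT-HSC. PEM-HSC libraries ran from 53.3 through 64.5 to 91.1 CPM, and the highest and lowest of all 13 differed 1.72-fold. The 3 groups overlapped, with log2 fold changes of 0.21 for PLT-HSC and 0.16 for PEM-HSC against MUL-HSC. Bax shares exon sequence with Gm45808 and Bak1 with Ggnbp1 on the other strand, so reads of these stretches may have been assigned otherwise. Bak1 stood at 6.04, 4.55, 4.34 and 7.18 CPM in MUL-HSC, at 7.75, 2.95 and 5.70 CPM in PLT-HSC, and from 1.02 through 5.44 to 7.58 CPM in PEM-HSC. Its fold changes against MUL-HSC, -0.037 in PLT-HSC and -0.16 in PEM-HSC, were close to 0 with wide intervals, -2.51 to 2.43 and -2.24 to 1.92.

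The BH3-only genes fell into an abundant pair, a scarce pair and a gene listed at 0. Bid, which caspase-8 cleaves to link death receptors to mitochondria, stood at 142, 126, 102 and 131 CPM in MUL-HSC and at 150, 128 and 94.3 CPM in PLT-HSC. It ran from 81.9 through 124 to 180 CPM in PEM-HSC. Bad, which growth factor kinases hold inactive by phosphorylation, stood at 81.7, 80.7, 83.7 and 58.9 CPM in MUL-HSC and at 52.4, 70.1 and 70.4 CPM in PLT-HSC, and ran from 43.3 through 65.8 to 110 CPM in PEM-HSC. For both genes the 3 groups overlapped. Bid had group means of 125 ± 17.1 (SD, n = 4), 128 ± 37.1 (n = 6) and 124 ± 28.2 CPM (n = 3) in MUL-HSC, PEM-HSC and PLT-HSC.

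Bcl2l11, the BIM gene, was found at 6.26, 0.039, 1.65 and 14.2 CPM in MUL-HSC and at 2.27, 0.034 and 12.1 CPM in PLT-HSC. In PEM-HSC it ran from 0.072 through 6.33 to 18.6 CPM. Each group thus had 1 library with 1 or 2 reads of it, under the floor of 3 counts, beside libraries at up to 18.6 CPM. Bbc3, the PUMA gene and a p53 target, stood at 0.496, 0.232, 4.28 and 2.95 CPM in MUL-HSC and at 5.45, 3.32 and 9.53 CPM in PLT-HSC. It ran from 0 through 2.77 to 7.75 CPM in PEM-HSC. The lowest PLT-HSC library lay between the pair of higher MUL-HSC libraries, so the groups overlapped. The Bbc3 estimate in PLT-HSC against MUL-HSC was the highest of the 9 tested members, with a log2 fold change of 1.59, but its 95% interval was wide, -2.07 to 5.25. Pmaip1, the NOXA gene, had 0 of 348456171 counts over all libraries, where a count of 0 allows up to 0.00861 CPM of reads counted for it. Whether the annotation used for counting covers its transcript is not given in the sources used here, so the 0 does not show that the gene was silent.

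Over the 9 tested members, 0 were called in PLT-HSC against MUL-HSC, where 0.0479% of all tested genes were called (6 of 12536). In PEM-HSC against MUL-HSC 0 members were called, with 0.00798% of all genes (1 gene), and in PLT-HSC against PEM-HSC 0 members, with 0% of all genes. At an unadjusted edgeR p under 0.05 there were also 0 members in each comparison, where 7.37%, 5.93% and 3.73% of all genes passed. DESeq2 called 0 members while calling 2.09%, 1.41% and 0.917% of genes, and limma voom called 0 members with 0%, 0.00798% and 0.00798% of genes. The members' lowest unadjusted edgeR p was 0.245, for Mcl1 in PLT-HSC against PEM-HSC (log2 fold change 0.32). No member had groups that did not overlap, a pattern seen in 3.75% of genes as higher and 3.04% as lower in PLT-HSC against MUL-HSC. In PEM-HSC against MUL-HSC these shares were 0.862% and 0.63%, and in PLT-HSC against PEM-HSC 1.1% and 1.06%. The 3 comparisons share libraries pairwise, so their fold changes are not independent of each other.

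A missed threshold does not show equal levels, and the intervals say how large a difference the data leave room for. For Mcl1, Bax, Bid and Bad, the intervals of all 3 comparisons lay between -0.93 and 0.94 on the log2 scale, so a change of 2-fold or more lay outside them. The intervals take each library as a unit. Because the number of recipients behind a group is not given, they may be too narrow for a difference between classes. For Bcl2 and Bcl2l1 the intervals reached from -1.12 to 2.01. For Bak1 they reached from -2.51 to 2.43, and for Bcl2l11 and Bbc3 from -4.28 to 5.25, which leaves room for large differences. The median log2 fold change of the 9 tested members was 0.21 in PLT-HSC against MUL-HSC, 0.067 in PEM-HSC against MUL-HSC and 0.12 in PLT-HSC against PEM-HSC. Over all tested genes these medians were 0.039, 0.0094 and 0.017.

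**Figure D2:**
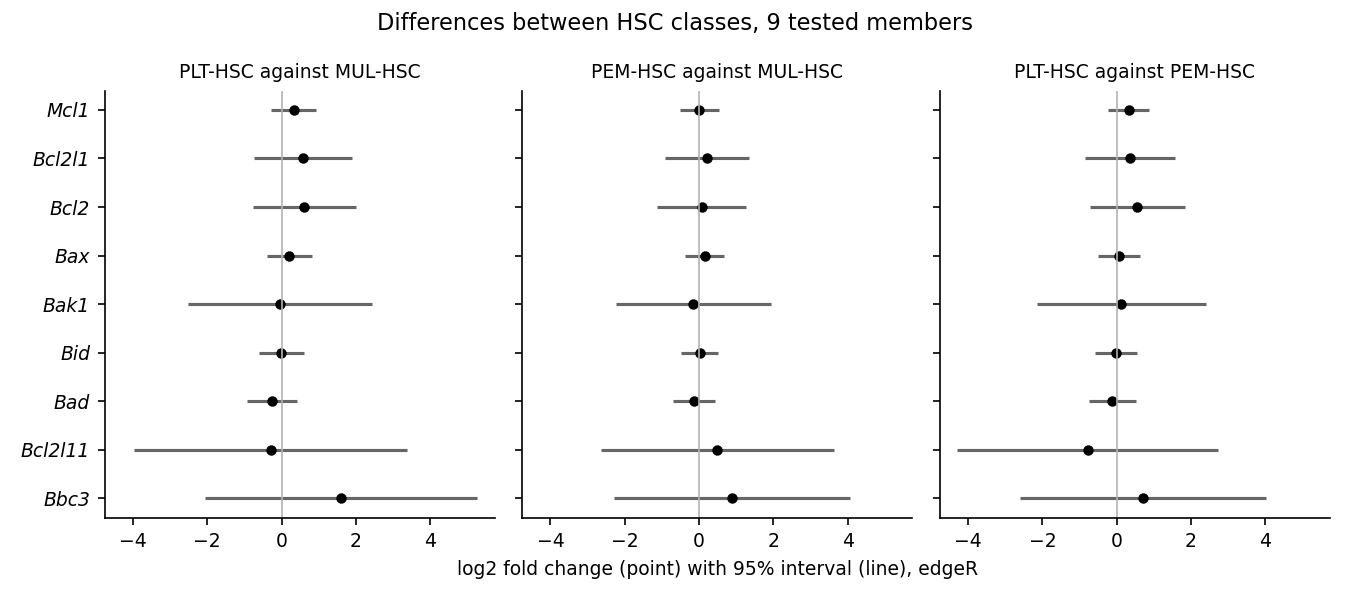
Log2 fold change of the 9 tested members in the 3 comparisons (points, edgeR) with 95% intervals (lines). Every interval includes 0. Those of Mcl1, Bax, Bid and Bad stay between -0.93 and 0.94, and those of Bcl2l11 and Bbc3 reach from -4.28 to 5.25.

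The survival genes were set beside the pore formers per kilobase. Summed over Mcl1, Bcl2 and Bcl2l1, the level was 52.1, 74.0, 45.4 and 84.2 CPM per kb in MUL-HSC and 111, 37.7 and 112 in PLT-HSC. PEM-HSC libraries lay within 61.6 to 79.5 CPM per kb. Bax and Bak1 together stood at 51.2 to 66.7 for MUL-HSC, 50.04 to 84.9 for PEM-HSC, and 56.0 to 75.9 CPM per kb for PLT-HSC. The ratio of survival to pore-forming transcripts was 0.837, 1.43, 0.681 and 1.64 in MUL-HSC, between 0.726 and 1.59 for PEM-HSC, and 1.65, 0.496 and 2.002 in PLT-HSC. PLT-HSC thus held the highest and the lowest ratio of the 13 libraries, and no class stood apart. Of the survival sum, the Mcl1 share was 76.1 ± 12.1% (SD) over the 4 MUL-HSC libraries, 71.6 ± 8.80% over the 6 PEM-HSC libraries and 71.0 ± 4.01% over the 3 PLT-HSC libraries. Bcl2 made up 7.21 ± 1.24%, 7.31 ± 4.54% and 7.09 ± 5.95% in the same order. These sums are descriptions over chosen members and were not tested.

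**Figure D3:**
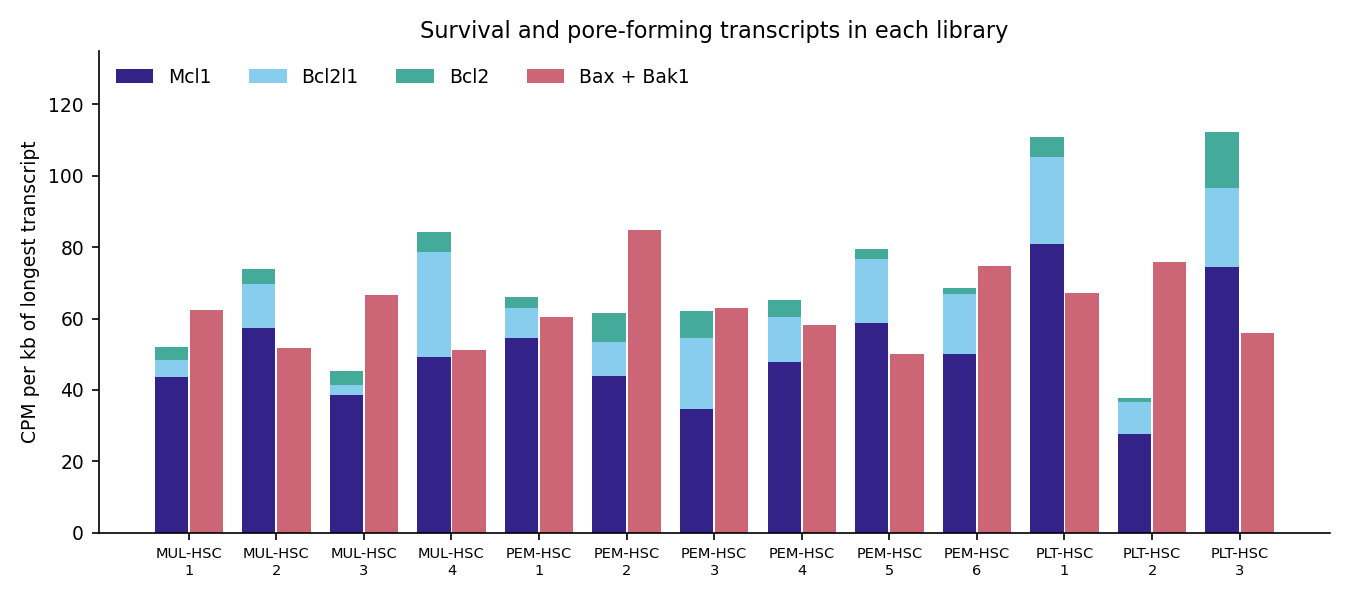
Stacked bars give Mcl1, Bcl2l1 and Bcl2 and single bars give Bax plus Bak1 in each library, as CPM per kb of the longest transcript. Mcl1 is the largest survival share everywhere, and PLT-HSC replicates 1 and 3 (111 and 112) stand above and replicate 2 (37.7) below all other survival sums.

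Members differed in how much they varied between libraries of a group. The SD of log2 CPM within groups was 0.29 for Bax, 0.37 for Bad, 0.38 for Bid and 0.42 for Mcl1. The 500 genes nearest in level to each had median SDs of 0.49, 0.49, 0.38 and 0.35, so Bax and Bad varied less than such genes and Mcl1 slightly more. Bcl2 and Bcl2l1 had SDs of 1.06 and 0.93, above the medians of 0.74 and 0.74 near their level. Bak1 was steady for a scarce transcript, at 0.81 against 2.02, while Bcl2l11 was at 2.86 against 2.44 and Bbc3 at 2.06 against 2.59. These values describe the libraries and carry no test.

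**Figure D4:**
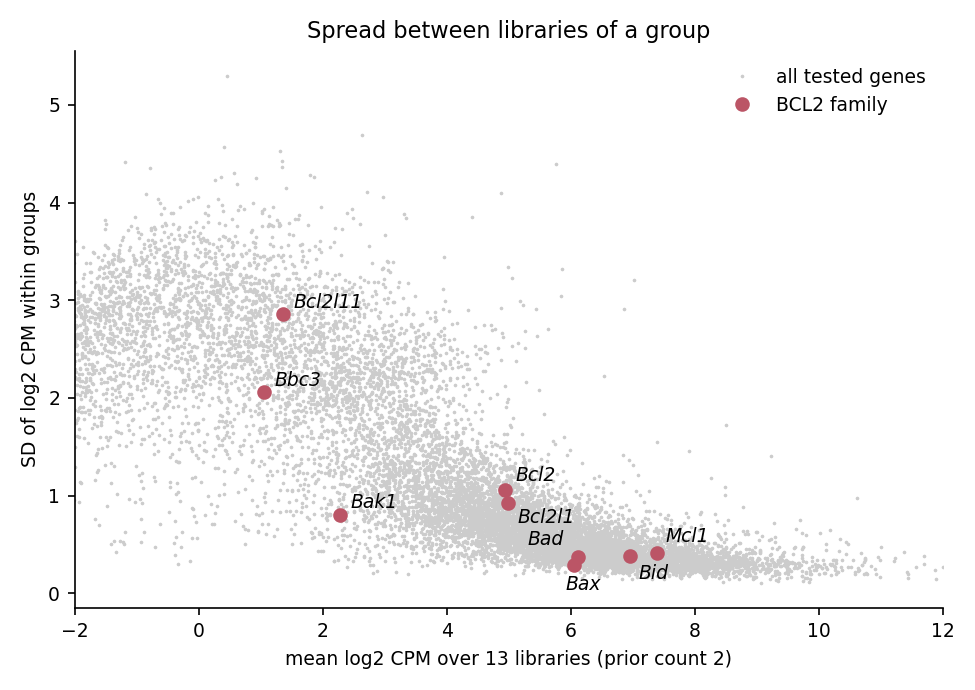
Mean log2 CPM over the 13 libraries against the SD of log2 CPM within groups, for all tested genes (grey) and the 9 tested BCL2 family genes (red). Bak1 (0.81) and Bax (0.29) lie low among genes of their level, and Bcl2 (1.06) and Bcl2l1 (0.93) lie high.

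Of 16 further BCL2 family genes, 10 were tested and 0 were called by edgeR in any of the 3 comparisons. Over all tested genes, 0.0479% were called in PLT-HSC against MUL-HSC, 0.00798% in PEM-HSC against MUL-HSC and 0% in PLT-HSC against PEM-HSC. At an unadjusted edgeR p under 0.05, 1 of the 10 was higher and 0 lower in each comparison against MUL-HSC, both times Bcl2a1d. Of all tested genes, 7.37% (PLT-HSC) and 5.93% (PEM-HSC) passed there. The hypoxia and mitophagy genes Bnip3l and Bnip3 were the most abundant, at 165 ± 33.7 and 102 ± 21.5 CPM over 13 libraries, followed by Bcl2l12 at 37.9 ± 7.28 CPM. The survival gene Bcl2l2 (BCL-W) stood at 9.25 ± 5.95 CPM (SD) over the 4 MUL-HSC libraries, 6.41 ± 6.53 over the 6 PEM-HSC libraries and 5.66 ± 7.46 over the 3 PLT-HSC libraries. The BH3-only gene Hrk and Bcl2l10 were listed at 0 in all libraries. The Bcl2a1 genes are near-identical copies between which reads may be split, and the highest value of Bcl2a1b, the copy with counts in 12 libraries, was 6.44 CPM. Bcl2a1d had counts in 5 libraries. It was at 0 in MUL-HSC, and reached 2.38 CPM in PEM-HSC (edgeR adjusted p = 0.763) and 1.21 CPM in PLT-HSC (edgeR adjusted p = 0.660).

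The genes around the family were counted from lists. Of 21 caspase and apoptosome genes, 12 tested of 13 death receptor genes, 20 p53 pathway genes and 20 kinase, FOXO and MCL1 turnover genes, 0 were called by edgeR in any comparison. Their median log2 fold changes in PLT-HSC against MUL-HSC were 0.10, 0.031, 0.27 and 0.37, beside 0.039 over all genes. The most abundant members were Vdac2 and Vdac3, channels of the outer membrane, at 384 and 369 CPM, and Casp8, the death receptor caspase, at 249 ± 35.1 CPM. Ripk3 (140 CPM), Tnfrsf1a, a TNF receptor (61.7 CPM), and Ripk1 (52.3 CPM) led the death receptor list. Sesn1 (481 CPM), Trp53, which encodes p53 (242 CPM), and Plk2 (140 CPM) led the p53 list, and the kinases Pim2 (418 CPM), Gsk3b (149 CPM) and Mapk9 (124 CPM) the last list. Cdkn1a, the cell cycle inhibitor under p53, had means of 2.70 ± 1.40 (MUL-HSC), 8.80 ± 12.8 (PEM-HSC) and 4.64 ± 6.38 CPM (PLT-HSC).

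At an unadjusted edgeR p under 0.05, 3 genes of these 4 lists were higher (Pim2, Plk2 and Dffb) and 3 lower (Gsk3b, Aen and Diablo) in PLT-HSC against MUL-HSC. By list, 1 higher and 1 lower were among 21 caspase and apoptosome genes, and 0 among 12 death receptor genes. The p53 list and the kinase list each gave 1 higher and 1 lower of 20 genes. Over all tested genes 7.37% passed in this comparison, 5.93% in PEM-HSC against MUL-HSC and 3.73% in PLT-HSC against PEM-HSC. Values of the named genes follow, and none of these genes was called by edgeR. Pim2, a kinase that phosphorylates Bad and promotes survival, stood at 243, 287, 220 and 378 CPM in MUL-HSC and at 630, 509 and 254 CPM in PLT-HSC. In PEM-HSC it ran from 377 through 446 to 643 CPM. PEM-HSC overlapped MUL-HSC only at MUL-HSC replicate 4, at 378 CPM. The Pim2 log2 fold change of PEM-HSC against MUL-HSC was 0.77 (95% interval 0.21 to 1.33, edgeR unadjusted p = 0.0102, edgeR adjusted p = 0.687). Plk2, a stress kinase under p53, stood at 9.51, 33.7, 60.5 and 45.3 CPM in MUL-HSC, at 52.3 through 203 to 241 CPM across PEM-HSC and at 536, 70.4 and 61.9 CPM in PLT-HSC. Its PLT-HSC mean rested on replicate 1 at 536 CPM, and without it the log2 fold change against MUL-HSC moved from 2.59 to 0.84. Gsk3b, a kinase that marks MCL1 for degradation, stood at 118, 298, 145 and 193 CPM in MUL-HSC and at 136, 89.2 and 109 CPM in PLT-HSC. Its log2 fold change was -0.78 (edgeR adjusted p = 0.646), and -0.44 without MUL-HSC replicate 2. Aen, a nuclease gene under p53, stood at 13.2, 20.6, 27.7 and 26.0 CPM in MUL-HSC and at 4.55, 9.69 and 9.34 CPM in PLT-HSC, with no overlap. Of the 20 p53 genes, 1 lay higher (Plk2) and 1 lower (Aen) without overlap in this comparison. Over all tested genes these shares were 3.75% and 3.04%. The log2 fold change of Aen in PLT-HSC was -1.47 against MUL-HSC (edgeR adjusted p = 0.646) and -1.34 against PEM-HSC. In PEM-HSC against MUL-HSC, Pim2, Plk2 and Dffb were higher at an unadjusted p under 0.05, and Mdm2, which encodes the p53 ubiquitin ligase, was lower (log2 fold change -0.60, edgeR adjusted p = 0.838). In PLT-HSC against PEM-HSC, Dffb (1.16) and Usp9x, which encodes an MCL1 deubiquitinase (1.23), were higher and Aen lower. The Usp9x value was 0.41 without PLT-HSC replicate 1. Dffb and Diablo were chosen after their values were seen, as the caspase and apoptosome genes whose PLT-HSC and MUL-HSC libraries did not overlap, which holds for 2 of 21 genes there (1 higher, 1 lower), beside 3.75% higher and 3.04% lower over all tested genes. Dffb, the nuclease that cuts DNA in apoptosis, stood at 5.27, 4.82, 9.28 and 24.1 CPM in MUL-HSC and at 45.3, 63.2 and 60.9 CPM in PLT-HSC. Its log2 fold change was 2.40 (95% interval 1.17 to 3.63, edgeR adjusted p = 0.201), and DESeq2 alone called it (adjusted p = 0.00356). Diablo, which encodes the caspase activator SMAC, stood at 260, 271, 276 and 273 CPM in MUL-HSC and at 198, 233 and 139 CPM in PLT-HSC (log2 fold change -0.49, edgeR adjusted p = 0.646).

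**Figure D5:**
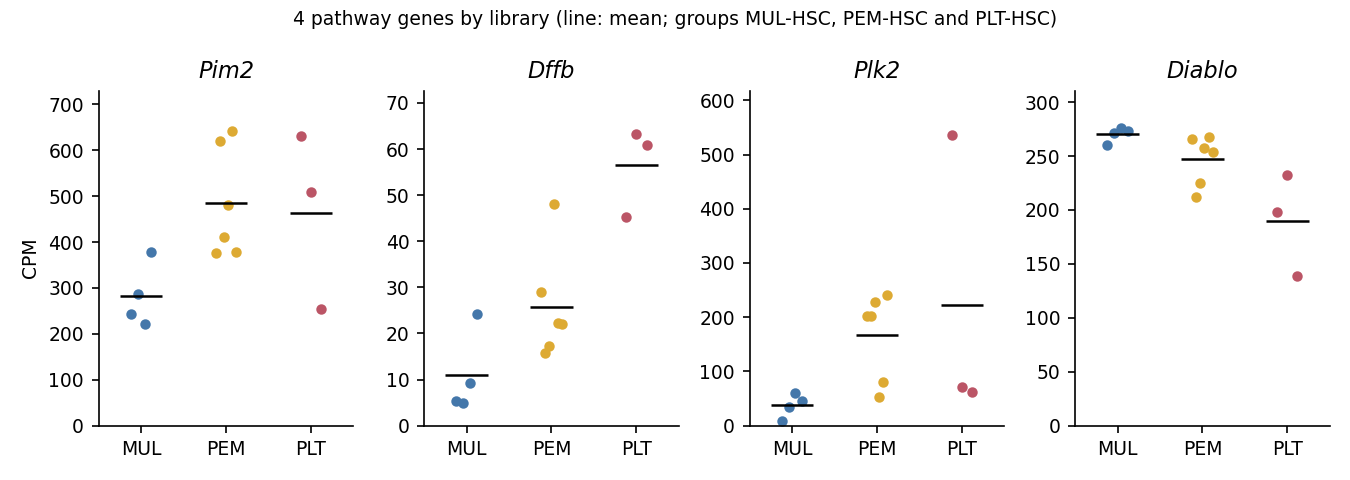
Level in CPM of Pim2, Dffb, Plk2 and Diablo in each library (points) with the group mean (line); each panel has its own axis from 0. PLT-HSC lies above MUL-HSC for Dffb and below it for Diablo, and 1 PLT-HSC library (536) sets the Plk2 mean.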

How the data were processed

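Per the labels, polyadenylated RNA of 100 sorted cells was amplified by Smart-seq+ and made into Nextera XT libraries, with no molecular identifiers named. Per the submitters' processing notes, the mm9 build and the tools STAR, featureCounts, Trimmomatic and FastQC stand behind the values. No version, strand mode or annotation is given in the sources used here. Values deposited by the authors are whole-number counts for each gene symbol, without normalization. The 92 ERCC spike-in rows, 0.0191% to 0.0612% of a library, were left out. Genes were kept with filterByExpr (12536), scaled by TMM and fitted over all 13 libraries with the robust quasi-likelihood test of edgeR 4.0.16 in R 4.3.3, with 1 term per group and Benjamini-Hochberg adjustment over all tested genes; a call is an adjusted p under 0.05. SEs and 95% intervals come from the fold change and its F statistic. DESeq2 1.42.0 and limma 3.58.1 (voom) were alternatives. Replicates of a group differed by more than counting error (chi-square per degree of freedom at least 163), so none was a copy of another. This does not show that they came from different recipients.

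Lengths and overlaps come from GENCODE vM21 on GRCm38, start-site sequences from RefSeq on GRCm38.p6. Exons of Bcl2, Bax, Bak1, Bid and Bad overlap those of D630008O14Rik, Gm45808, Ggnbp1, Bcl2l13 and Gpr137, so reads there may have been assigned to either gene or dropped. The members and lists were chosen with earlier results of these data known. All 10 members are named, with the 3 most abundant genes of each further list; any other gene was picked with its values in view, among them all genes of the 4 pathway lists at an unadjusted p under 0.05. Some marker and pathway genes are not reported here.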

Additional observations from a re-analysis of the deposited data

Results flagged for a closer look

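Of 18 sets of values tested for a library far from its group (9 members in the 4 MUL-HSC and 6 PEM-HSC libraries), 1 stood out, where chance gives about 1 in 20. Bad in MUL-HSC replicate 4 was at 58.9 CPM, below the other 3 at 80.7 to 83.7 CPM, and its gap was 0.881 of the group's range, above the critical value of 0.829. The same library had the highest Bcl2l1 level of the series.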

How the results depend on the processing

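In all 24 alternatives 0 members were called in each comparison, and the lowest edgeR adjusted p of a member was 0.55, for Mcl1 in PLT-HSC against MUL-HSC without PLT-HSC replicate 2. Of the 27 fold changes of members, 11 kept their direction throughout and 16 turned in some setting, in 51 of 642 values. Of those 16, none was called, and the largest main value was 0.62, for Bcl2 in PLT-HSC against MUL-HSC. Leaving out 1 library at a time, the log2 fold changes that turned were as follows. In PLT-HSC against MUL-HSC they ran from -0.43 to 1.13 for Bcl2, -2.22 to 0.71 for Bcl2l11, -0.39 to 0.23 for Bak1 and -0.16 to 0.21 for Bid. In PEM-HSC against MUL-HSC they ran from -0.18 to 0.24 for Bcl2, -0.12 to 1.06 for Bcl2l1, -0.067 to 0.14 for Mcl1, -0.012 to 1.51 for Bcl2l11, -0.31 to 0.060 for Bak1 and -0.097 to 0.12 for Bid. In PLT-HSC against PEM-HSC they ran from -0.50 to 1.06 for Bcl2, -0.15 to 0.21 for Bax, -0.23 to 0.39 for Bak1, -0.18 to 0.18 for Bid and -0.26 to 0.056 for Bad.

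Other settings turned the following values. With voom, PEM-HSC against MUL-HSC gave -0.23 for Bcl2, -0.00792 for Mcl1 and -0.042 for Bid. With detected genes as a covariate, Bcl2 there was -0.13, and Bid in PLT-HSC against MUL-HSC was 0.035. Bid was 0.000549 there with a filter of at least 10 CPM in 3 libraries, and 0.15 without MUL-HSC replicates 1 and 2, where Bcl2l1 in PEM-HSC against MUL-HSC was -0.14. With the replicate block, Mcl1, Bak1 and Bad in PEM-HSC against MUL-HSC were -0.12, 0.18 and 0.016, and Bax and Bak1 in PLT-HSC against PEM-HSC were -0.052 and -0.24. The cause was not tested.

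Replicate numbers did not pair the libraries. Deviations from group means correlated at -0.13 to 0.048 over 10 same-numbered pairs, and 1 of 11 libraries with a partner correlated best with its own number. The replicate block changed the calls over all genes from 6 to 2, 1 to 0 and 0 to 0. In PLT-HSC against MUL-HSC the 6 called genes became 262 with DESeq2, 0 with voom, 11 without a filter, 13 with the 10 CPM filter, 1 with only these groups in the fit, 1 without MUL-HSC replicates 1 and 2, and 1 to 37 leaving out 1 library. In PEM-HSC against MUL-HSC the 1 gene became 177 with DESeq2, 0 with only these groups or with the covariate, and 0 to 4 leaving out 1 library. In PLT-HSC against PEM-HSC 0 became 115 with DESeq2, 1 with voom and 0 to 2 leaving out 1 library. TMM scaling moved none of the 30 mean levels by more than 1 SD. With the median transcript length, Bid ranked 1 and Bax 2 per kilobase, Bad 3, Mcl1 4, Bbc3 6, Bcl2 7 and Bak1 8. For Bcl2l11 and Bbc3, which had 1 to 2 reads or 0 reads in 4 library values, depth and spread limit what can be detected.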

Other observations

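Some genes had a high Pearson correlation with members over the 13 libraries. Among 8677 genes with a mean of at least 10 CPM, those with the highest Pearson r of log2 CPM are given as a description, with no test, since the highest of so many values is high by selection. For Mcl1 they were Prkrir (r = 0.85), Wdr33 (0.83) and Tnrc6c (0.81). For Bcl2 they were Ogdh (0.86), Pomt2 (0.85) and Zxdc (0.84). For Bcl2l11 they were Ncoa1 (0.83), Clic4 (0.83) and AA987161 (0.82), and for Bax U2surp (0.87), Spo11 (0.85) and Tvp23b (0.84). By rank (Spearman rho) these correlations ran from 0.47 for AA987161 and 0.68 for Pomt2 up to 0.89 for Zxdc. Bcl2l11 was under the floor of 3 counts in 3 of the 13 libraries. The values share each library's depth and scaling.

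Apaf1, the scaffold of the apoptosome, averaged 19.6 ± 15.3 CPM (SD) in MUL-HSC, 27.9 ± 14.4 in PEM-HSC and 23.3 ± 9.98 in PLT-HSC. In the same order, Casp9, the caspase it activates, averaged 6.45 ± 5.99, 16.4 ± 12.8 and 9.63 ± 8.76 CPM. Xiap, which inhibits caspases, averaged 41.8 ± 26.5, 53.7 ± 27.5 and 67.2 ± 49.5 CPM. None of these genes was called by edgeR in any of the 3 comparisons.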
